A study of Mus musculus with 12 samples.

Results

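The genes described here mark and build the oligodendrocyte lineage: Olig2, Olig1, Nkx2-2, Sox10, Sox8, Pdgfra and Cspg4. They were chosen by name, with earlier results of these data known, as 7 of the 21887 protein-coding genes on the main mouse chromosomes. Each locus was taken as the gene body with 20 kb of flank at either end (mm10), and the measurements are the acetylated regions called in that window. The mark is acetylation of histone H3 at lysine 27 (H3K27ac), which is found at active promoters and enhancers. It was mapped by chromatin immunoprecipitation and sequencing of native, nuclease-digested chromatin from whole cortex of E15.5 mouse embryos.

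Conditional knockout (cKO) embryos carried Emx1-Ires-Cre and Prdm16 flox/flox, and their controls, called WT, carried Prdm16 flox/flox with no Cre in the label. Both genotypes therefore share the floxed allele of Prdm16, a gene for a chromatin regulator with zinc fingers. Emx1-Ires-Cre is active in dorsal forebrain progenitors and the cells they give rise to. Whole cortex also holds cells of other origins, such as interneurons and early oligodendrocyte precursors from the ventral forebrain, vessels and meninges, in which the allele is expected to stay intact. There were 3 libraries per genotype, and the identifiers of the libraries fall into 2 sets, with replicates 1 and 2 of both genotypes in set A and replicate 3 of both in set B. Whether replicates are separate embryos or litters is not given. Each p-value therefore sets the genotype difference only against the spread among these samples, and that spread may be technical. In bulk tissue, fewer cells of a type and less of the mark per cell cannot be told apart.

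The oligodendrocyte lineage starts from progenitors in which sonic hedgehog signalling and the bHLH factor Olig2 set the precursor fate. Olig2 turns on Sox10, which together with its relatives Sox8 and Sox9 maintains precursors and later drives myelin genes. Precursors carry the receptor PDGFRA, through which PDGF drives their division, and the proteoglycan NG2, the product of Cspg4. In the forebrain the first precursors arise ventrally and migrate into the cortex, and a later wave comes from the Emx1 lineage itself around birth, after the stage sampled here.

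Each deposited list gives the position, width, fold enrichment and significance of every peak in a library, as the authors' peak caller wrote them. The lists held 59209, 58682 and 55015 peaks in cKO replicates 1, 2 and 3, and 66493, 75563 and 48168 peaks in WT replicates 1, 2 and 3. WT replicates thus include both the longest and the shortest list. For that reason the locus lengths are given both in the lists as deposited and in equal-length lists, in which every library kept its 48168 peaks with the highest -log10 p. That step removed no peak from WT replicate 3, whose lowest -log10 p was 3.12, while the lowest value kept was 4.13 to 4.41 in the cKO libraries and 4.58 and 5.06 in WT replicates 1 and 2. Peak lists hold no read counts, so the depth behind these values is unknown, and they give no check of the Prdm16 deletion itself.

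Among the members matched to the RefSeq promoter table (5 of 7), the promoters of Sox8 and Olig2 stand at the ends of the range seen here, with acetylation over the first and none over the second. They are given here with those of Nkx2-2 and Cspg4, from 250 bases before to 50 bases after the gene start (GRCm38.p6, the assembly behind mm10; 5′ to 3′ on the gene's own strand; every CG dinucleotide in capitals). Their positions are chr17:25570637-25570936 on the minus strand for Sox8, chr9:56864854-56865153 on the plus strand for Cspg4, chr16:91225300-91225599 on the plus strand for Olig2 and chr2:147186353-147186652 on the minus strand for Nkx2-2.
Sox8: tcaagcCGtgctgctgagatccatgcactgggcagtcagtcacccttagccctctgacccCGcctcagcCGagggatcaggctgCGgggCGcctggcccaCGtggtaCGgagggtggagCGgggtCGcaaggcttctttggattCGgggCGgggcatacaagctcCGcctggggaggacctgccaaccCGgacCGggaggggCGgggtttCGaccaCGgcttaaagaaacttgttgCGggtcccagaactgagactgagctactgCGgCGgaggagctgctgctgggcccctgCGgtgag
Cspg4: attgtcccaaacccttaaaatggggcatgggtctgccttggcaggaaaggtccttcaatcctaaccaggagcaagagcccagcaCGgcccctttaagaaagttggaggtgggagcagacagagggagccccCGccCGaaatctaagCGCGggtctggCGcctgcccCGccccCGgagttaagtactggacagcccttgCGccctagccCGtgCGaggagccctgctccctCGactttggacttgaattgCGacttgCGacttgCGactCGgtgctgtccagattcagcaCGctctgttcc
Olig2: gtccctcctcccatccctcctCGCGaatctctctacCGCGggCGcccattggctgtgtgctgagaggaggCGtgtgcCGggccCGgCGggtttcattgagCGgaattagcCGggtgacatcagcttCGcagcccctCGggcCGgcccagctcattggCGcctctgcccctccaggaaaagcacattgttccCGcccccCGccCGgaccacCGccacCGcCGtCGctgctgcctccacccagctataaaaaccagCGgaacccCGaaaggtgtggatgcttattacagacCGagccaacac
Nkx2-2: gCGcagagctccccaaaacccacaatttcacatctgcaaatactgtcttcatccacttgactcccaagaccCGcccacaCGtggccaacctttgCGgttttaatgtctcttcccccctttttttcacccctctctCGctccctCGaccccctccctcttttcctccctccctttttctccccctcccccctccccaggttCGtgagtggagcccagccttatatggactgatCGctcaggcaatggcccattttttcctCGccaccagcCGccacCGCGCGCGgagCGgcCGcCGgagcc

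All 4 of these promoters held more CG dinucleotides than the median promoter, which had 13 over 21238 promoters of protein-coding genes. Olig2 had 25, Sox8 had 21, and Cspg4 and Nkx2-2 had 17 each, whereas Pdgfra had 5. The Sox8 promoter lay under peaks for 300, 300 and 297 of its 300 bases in cKO replicates 1, 2 and 3, and for 300, 300 and 37 bases in WT replicates 1, 2 and 3. The Cspg4 promoter lay under peaks for 198, 215 and 0 bases in the cKO libraries and for 192, 153 and 0 bases in the WT libraries, so the library without a peak was replicate 3 in both genotypes. In equal-length lists the peaks over the Sox8 promoter were all kept, and of those over the Cspg4 start the one in cKO replicate 1 alone was. The promoters of Olig2, Nkx2-2 and Pdgfra had no base under a peak in any of the 6 libraries. Promoters with that many CG dinucleotides seldom lacked the mark in this tissue. Of the 5257 promoters with at least 25 CG, 91.9% had a peak in all 6 libraries and 4.22% had one in none. For at least 17 CG these shares were 90.5% and 4.83%, and over all promoters they were 54.7% and 39.1%. The Olig2 and Nkx2-2 promoters are therefore among the few CG-rich promoters free of called H3K27ac in E15.5 cortex of either genotype.

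Short sequence motifs were searched on both strands of the 5 matched promoters, as a description only. The E-box CANNTG, the general bHLH element, occurred in 69.0% of all promoters and here 3 times in Nkx2-2, 2 times in Pdgfra, 1 time in Sox8 and 0 times in Olig2 and Cspg4. The letters ACAANG, the core bound by SOX proteins, occurred in 38.1% of all promoters and once each in Olig2 and Pdgfra. The letters TATAAA occurred in 12.6% of all promoters and, among the 5, in Olig2 alone.

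Across the windows, the members ranged from no H3K27ac to one of the more heavily covered loci of the genome. Covered length is the number of bases of a window that lie under peaks. It was scaled so that each library had the same total over all gene windows. Averaged over the 6 libraries, the scaled length was 12297 bp for Sox8, more than in 94.5% of genes, and 27.1% of that window lay under peaks. It was 2551 bp for Cspg4, 2158 bp for Pdgfra, 1782 bp for Sox10 and 732 bp for Olig2, against a median of 2726 bp over all 21887 genes. Olig1 and Nkx2-2 were at 0 bp in all 6 libraries, as were 20.5% of all genes. Below Sox8, the ranges over libraries of Cspg4, Pdgfra and Sox10 overlapped. That of Olig2 lay just under them, with a highest value of 934 bp against a lowest of 958 bp for Sox10.

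**Figure D1:**
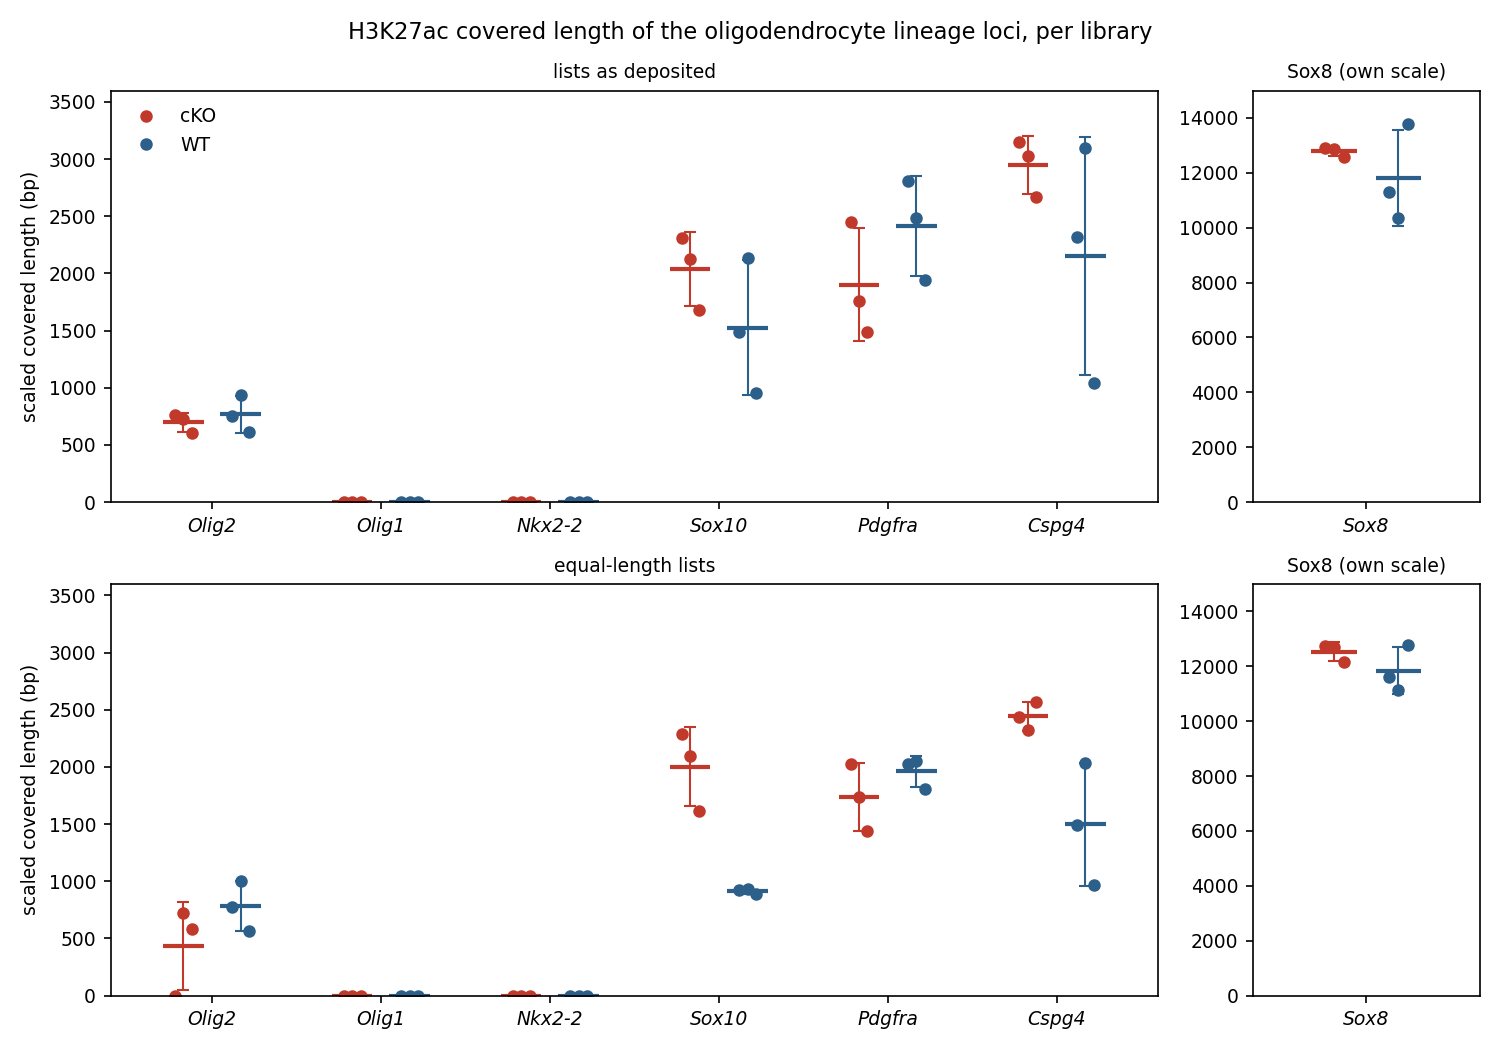
Scaled covered length (bp) of the 7 loci in each library, cKO left of WT, in the lists as deposited (upper panels) and in equal-length lists (lower panels); points are libraries, thick bars means and thin bars SD (n = 3), with Sox8 on its own axis. Only for Sox10 and Cspg4 in equal-length lists does every cKO point lie above every WT point, and Olig1 and Nkx2-2 lie at 0.

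Olig2, the bHLH factor that specifies the lineage, carried 1 shared region and none over its gene. The region lay on chromosome 16 at 91222258 to 91223105, from 2445 bp upstream of the gene start, and had a peak in all 6 libraries. Its peaks were 271, 720 and 540 bp wide in cKO replicates 1, 2 and 3, and 845, 813 and 472 bp wide in WT replicates 1, 2 and 3. Their fold enrichment was 3.14 to 4.75 in cKO and 3.29 to 3.67 in WT, and by -log10 p they ranked at 61.9 to 98.4% of the way down their lists, among the weaker peaks. Other peaks in the window were a 495 bp one in cKO replicate 1 and a 327 bp one in WT replicate 2. The scaled covered length was 761, 728 and 606 bp in the cKO libraries, and 752, 934 and 614 bp in the WT libraries. Those ranges overlapped, with means of 698 ± 81.8 bp in cKO and 767 ± 161 bp in WT (SD, n = 3 each, two-sided exact permutation test p = 0.6, smallest possible p 0.1). In equal-length lists the shared peak was no longer present in cKO replicate 1, which left 0, 719 and 584 bp in cKO against 773, 1005 and 570 bp in WT, again overlapping.

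Olig1, a close relative that promotes later maturation, lies next to Olig2 on the same chromosome (91269769 to 91271939). No peak lay in its window, and the nearest was 29476, 29470 and 29283 bp away in cKO replicates 1, 2 and 3, and 32020, 22963 and 32177 bp away in WT replicates 1, 2 and 3. Beyond Olig1 the peaks gathered in a group with no protein-coding gene under it. In this group a region at 91305214 to 91306037, 33275 bp past Olig1, had peaks of 805, 528 and 665 bp in the 3 cKO libraries and none in the 3 WT libraries. It was singled out after its values were seen, and 298 of 85918 regions (0.347%) showed this pattern in the deposited lists. Its fold enrichment was 3.40, 3.80 and 3.99, and the peak of cKO replicate 1 dropped out of the equal-length list. Beside it, a region at 91303612 to 91304548 was covered in all 6 libraries, for 895, 417 and 470 bp in cKO and 548, 860 and 407 bp in WT. In windows widened to 100 kb on each side, neither gene passed the test, and the log2 difference was 0.13 ± 0.08 (SE) for Olig2 and 0.19 for Olig1, with limma adjusted p-values of 0.56 and 0.404.

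Nkx2-2, the homeodomain factor that acts with Sox10 as precursors differentiate, lies on chromosome 2 at 147176485 to 147195434. Its nearest peak was 40502, 102449 and 102332 bp away in cKO replicates 1, 2 and 3, and 40439, 40519 and 40491 bp away in WT replicates 1, 2 and 3. The nearer of these sites, at 147235873 to 147236242, was thus called in 1 of 3 cKO libraries and in 3 of 3 WT libraries, with widths of 307, 0 and 0 bp in cKO and 194, 250 and 161 bp in WT. Within 100 kb on each side it was the sole region. In equal-length lists it was called in 0 of 3 cKO libraries and in 2 of 3 WT libraries. The share of all regions with either split was not counted, and neither split was tested.

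Sox10, the SOX factor that defines the lineage from precursor to myelinating cell, had no peak over its own gene (chromosome 15, 79154913 to 79164490) in any library. Of its window's 3 regions, the first lay where the neighbouring genes 1700088E04Rik and Polr2f meet (79140843 to 79141940). It was 839, 792 and 689 bp wide in cKO replicates 1, 2 and 3, and 1007, 1055 and 737 bp wide in WT replicates 1, 2 and 3. The second, at 79151398 to 79153006, overlapped the end of Polr2f, a gene for an RNA polymerase subunit. This second region came to within 1907 bp of the low-coordinate end of Sox10. Sox10 had no entry in the promoter table, so the distance is not one to its start. It was 1490, 1308 and 806 bp wide in the cKO libraries, against 668, 655 and 0 bp in the WT libraries. Every cKO peak was wider than every WT peak there, a pattern shared by 2.32% of all regions. Fold enrichment was 4.42, 3.98 and 4.70 in cKO, and 3.05 and 3.49 in WT replicates 1 and 2. The third region was an 891 bp peak in WT replicate 2, at 79165807 to 79166697.

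The equal-length step removed 3 WT peaks from the Sox10 window and no cKO peak. One was the 891 bp peak of the third region, which made up 891 of the 2601 unscaled bp of WT replicate 2. The other two lay in the region between Polr2f and Sox10, whose peaks had a -log10 p of 6.20, 5.40 and 5.995 in cKO replicates 1, 2 and 3, and of 3.45 and 4.70 in WT replicates 1 and 2. The equal-length lists of those WT replicates began at 4.58 and 5.06, so both WT peaks dropped out and all 3 cKO peaks remained. It was then 1 of 630 regions in 63850 (0.987%) with a peak in every cKO library and in no WT library, and the sole such region in the 7 windows. With a single minimum of 5.06 in every list the outcome was the same, and 0.66% of regions showed it. With a minimum of 4.13 the 655 bp peak of WT replicate 2 was kept, and the region was no longer seen in cKO alone, a pattern that 0.563% of regions then showed. No region of the windows had the converse pattern in equal-length lists, which 0.908% of all regions showed.

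**Figure D2:**
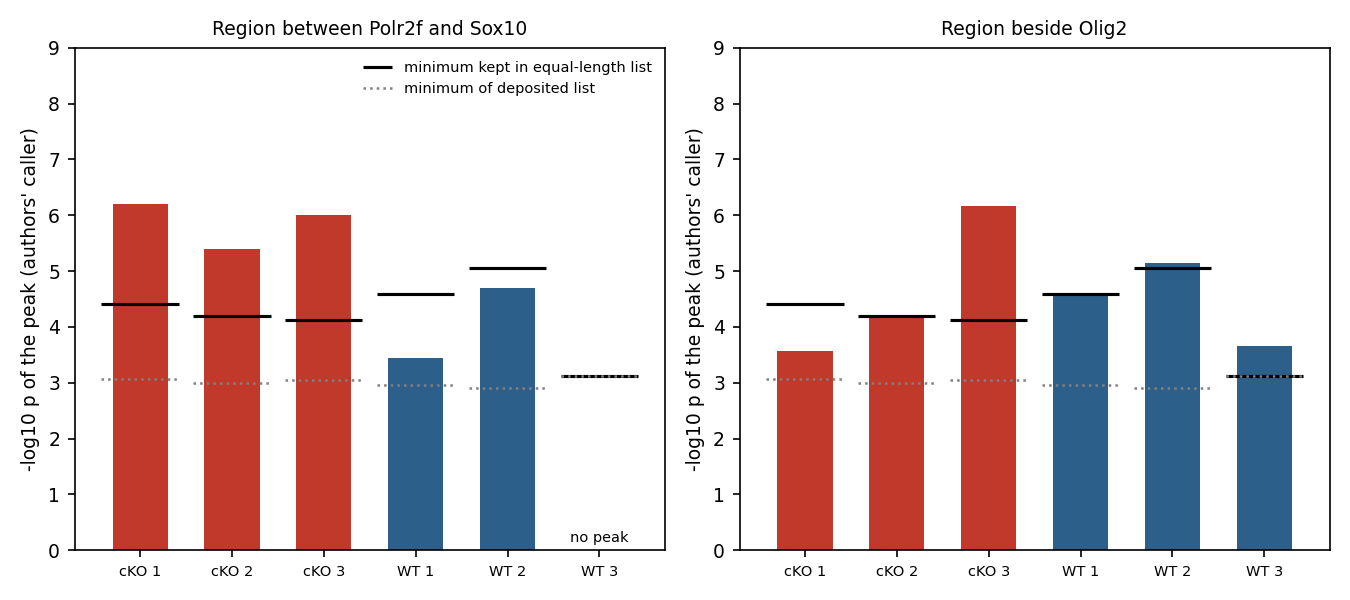
The -log10 p that the authors' caller gave to the peak between Polr2f and Sox10 (left) and to the peak beside Olig2 (right) in each library, with the minimum of the deposited list (dotted) and of the equal-length list (solid). Left, the cKO peaks at 6.20, 5.40 and 5.995 clear their solid lines and the WT peaks at 3.45 and 4.70 fall under theirs; right, the peak of cKO replicate 1 alone falls under its line.

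In the lists as deposited, the scaled covered length of the Sox10 locus was 2314, 2123 and 1677 bp in cKO replicates 1, 2 and 3, and 1491, 2131 and 958 bp in WT replicates 1, 2 and 3. WT replicate 2 lay among the cKO values. The means were 2038 ± 327 bp in cKO and 1527 ± 587 bp in WT (SD, n = 3 each), and the log2 difference of 0.36 ± 0.13 (SE) did not pass (limma adjusted p = 0.372). In equal-length lists the lengths were 2289, 2097 and 1617 bp in cKO, and 921, 930 and 889 bp in WT, with no overlap. The Sox10 locus was longer in cKO there, by 0.81 ± 0.09 (SE) on the log2 scale of length plus 500 bp (limma adjusted p = 0.0283). Sox10 was 1 of 45 genes called among 15088 tested (0.298%), of which 30 were longer in cKO (0.199%). Windows of neighbouring genes overlap, so the 45 are not all separate sites. Leaving out any 1 of the 6 libraries ended the call, with log2 differences of 0.75 to 0.92 and limma adjusted p-values of 0.0743 to 0.131, as did dropping the length filter (0.0533) or the scaling (0.064). Within library set A the log2 difference was 0.92, and within set B it was 0.61. The window holds all or part of 3 other genes, and no part of the covered length lay within Sox10 itself. The window of 1700088E04Rik holds the same first and second regions. In the deposited lists its scaled length was 2314, 2123 and 1677 bp in cKO, and 1491, 1401 and 958 bp in WT. Those groups did not overlap, a pattern of 6.71% of genes tested. The log2 difference was 0.51 ± 0.10 (SE) and did not pass (limma adjusted p = 0.0725). The Polr2f window holds every region of the Sox10 window. In equal-length lists the third region is gone, so Sox10, Polr2f and 1700088E04Rik have the same lengths there and share the same call. The covered length cannot be assigned to one of these genes.

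Sox8, a relative that acts redundantly with Sox10 and Sox9, was the most acetylated member. Its 25 peaks fell into 4 regions, each present in all 6 libraries, and all 25 were kept in the equal-length lists. Over the gene (chromosome 17, 25565893 to 25570686) lay a broad region at 25564298 to 25571540. It was covered for 7212, 6847 and 5384 bp in cKO replicates 1, 2 and 3, and for 7031, 6378 and 5971 bp in WT replicates 1, 2 and 3, and in cKO replicate 3 it was split into 2 peaks. A pair of regions lay beyond the gene's end, at 25555640 to 25557615 and 25559335 to 25562821, and another lay at the start of the neighbour Lmf1, at 25578570 to 25579940. These 3 regions had the highest fold enrichments in the 7 windows, 10.2 to 12.8 in cKO and 9.42 to 12.6 in WT, and each ranked in the top 8.06% to 14.9% of its list. The broad region over the gene was flatter, with fold enrichments of 5.08 to 5.71 in cKO and 4.85 to 5.83 in WT.

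The genotypes did not separate at Sox8. The scaled covered length was 12899, 12858 and 12595 bp in the cKO libraries, and 11300, 10366 and 13765 bp in the WT libraries, so the cKO values lay within the WT range. The log2 difference was 0.12 ± 0.11 (SE, limma adjusted p = 0.807) in the deposited lists and 0.08 ± 0.08 (limma adjusted p = 0.82) in equal-length lists. It was 0.24 within library set A and -0.12 within set B, and thus of opposite sign. Sox8 made up 59.8, 62.7 and 66.2% of the bases under peaks summed over the 7 windows in the cKO libraries, and 60.5, 54.5 and 75.1% in the WT libraries.

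Pdgfra, the receptor through which PDGF drives precursor division, carried 6 small regions around and within its gene (chromosome 5, 75151322 to 75198206). A pair was found in every library. The first lay inside the gene at 75155750 to 75157173 and was 1184, 1094 and 745 bp wide in cKO replicates 1, 2 and 3, and 1242, 917 and 648 bp wide in WT replicates 1, 2 and 3. The second lay 1393 bp past the gene at 75199599 to 75200361 and was 674, 344 and 584 bp wide in the cKO libraries, and 666, 756 and 686 bp wide in the WT libraries. Its fold enrichment reached 5.17 in cKO and 6.89 in WT. A region within the gene at 75183903 to 75184634 was called in no cKO library and was 723 and 327 bp wide in WT replicates 1 and 2. Those libraries had the longest lists, and the peak of WT replicate 1 dropped out of its equal-length list. How many of all regions showed this pattern was not counted.

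The scaled covered length of the Pdgfra locus was 2450, 1760 and 1491 bp in cKO replicates 1, 2 and 3, and 2813, 2489 and 1943 bp in WT replicates 1, 2 and 3. The cKO mean was lower but the groups overlapped, with 1900 ± 495 bp in cKO and 2415 ± 439 bp in WT (SD, n = 3 each). The log2 difference was -0.29 ± 0.12 (SE, limma adjusted p = 0.445) in the deposited lists and -0.15 ± 0.09 (limma adjusted p = 0.626) in equal-length lists. In the deposited lists it was -0.29 in library set A and -0.30 in set B.

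Cspg4, which encodes the NG2 proteoglycan of precursors and of the mural cells of vessels, carried 5 regions (gene on chromosome 9, 56865104 to 56899870). The main one lay within the gene at 56867777 to 56870126, and it was the member's sole region present in all 6 libraries. It was covered for 1779, 2325 and 1574 bp in cKO replicates 1, 2 and 3, and for 1396, 2095 and 800 bp in WT replicates 1, 2 and 3. A short region over the gene start, at 56864939 to 56865338, was 202, 367 and 0 bp wide in the cKO libraries and 377, 275 and 0 bp wide in the WT libraries. Another within the gene, at 56891647 to 56891878, was called in no cKO library and was 232 and 217 bp wide in WT replicates 1 and 2. Those libraries had the longest lists, and how many of all regions showed this pattern was not counted.

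The scaled covered length of the Cspg4 locus was 3149, 3030 and 2668 bp in cKO replicates 1, 2 and 3, and 2323, 3095 and 1040 bp in WT replicates 1, 2 and 3. The WT libraries were widely spread and WT replicate 2 lay among the cKO values. In equal-length lists the lengths were 2438, 2322 and 2572 bp in cKO, and 1490, 2038 and 965 bp in WT, with no overlap. That separation rested on weak regions at the window's edges, 18087 and 19313 bp from the gene, which kept peaks in cKO libraries alone. In the first, WT peaks with a -log10 p of 4.34 and 4.53 dropped out. Peaks of 4.43 and 4.45 in cKO replicates 1 and 3 stayed, as those lists had lower minima. The main region covered 2095 bp in WT replicate 2 and 1574 bp in cKO replicate 3. The log2 differences of 0.46 ± 0.17 (SE, limma adjusted p = 0.392) and 0.59 ± 0.17 (limma adjusted p = 0.251) did not pass. In the deposited lists it was 0.17 within library set A and 1.04 within set B, and set B holds the shortest list, that of WT replicate 3. Without cKO replicate 3 or WT replicate 3 the equal-length difference was 0.36.

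**Figure D3:**
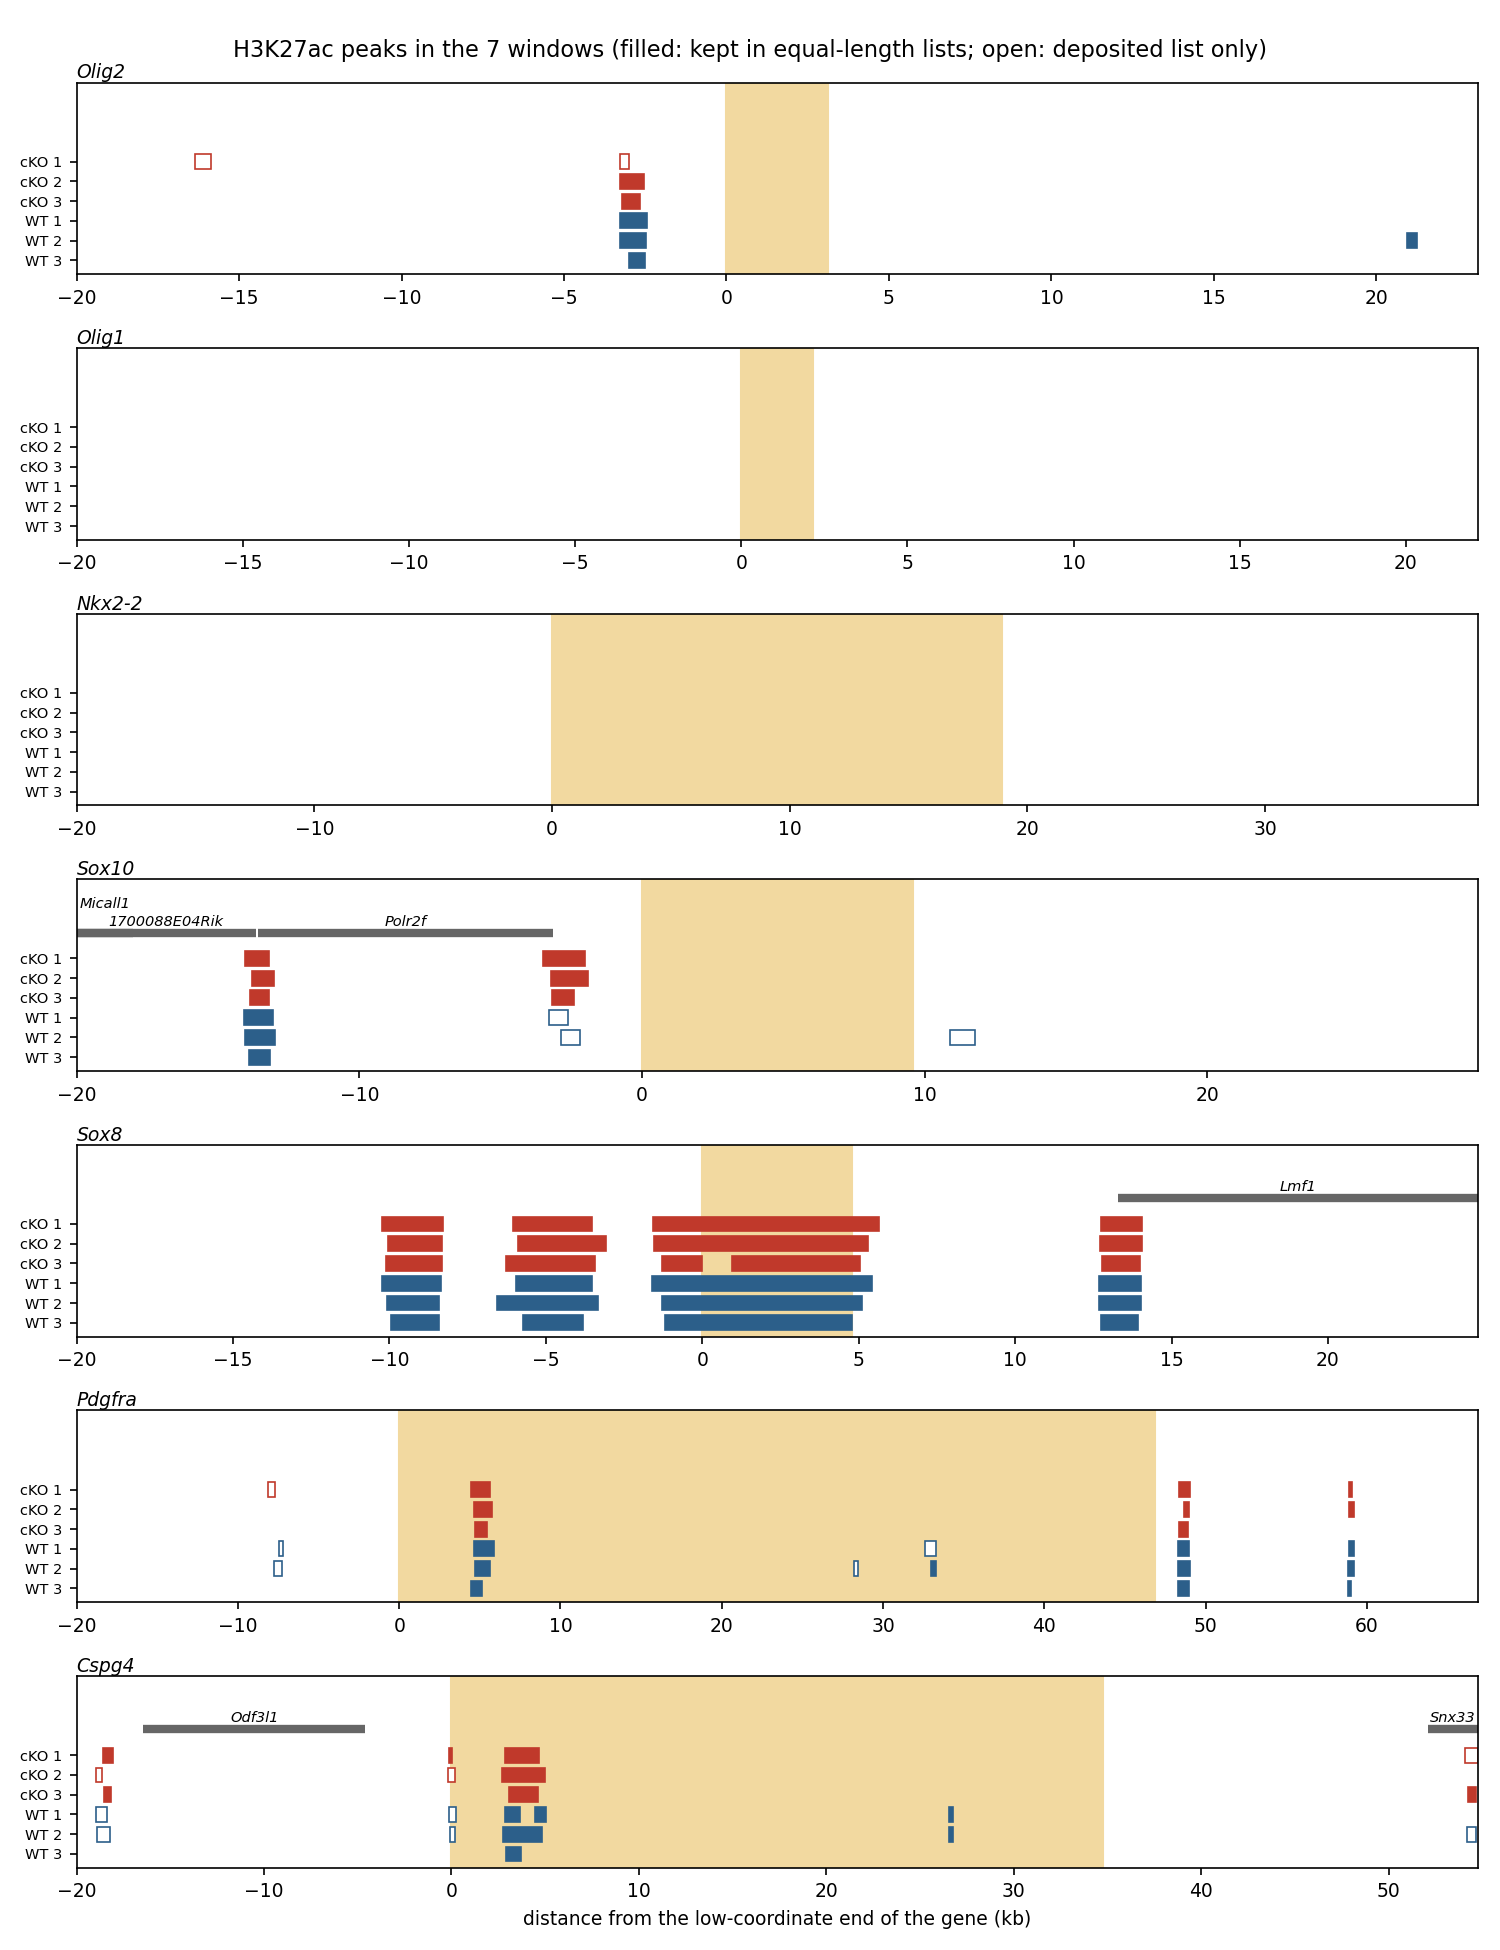
Peaks of each library (cKO rows above WT rows) in the 7 windows, by distance in kb from the low-coordinate end of each gene; shading marks the gene body, grey bars neighbouring genes, filled boxes peaks kept in equal-length lists and open boxes peaks of the deposited lists alone. Sox8 has 4 regions filled in all 6 libraries, Olig1 and Nkx2-2 have none, and the peak between Polr2f and Sox10 is filled in the 3 cKO libraries and open or missing in the WT libraries.

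Set side by side, 4 of the 7 members passed the length filter (a mean of at least 1000 bp) and could be tested, and Olig2 with the 2 members at 0 bp could not. In the deposited lists limma called none of the 4, against 42 of 15354 genes (0.274%), 19 of them longer in cKO (0.124%), and it called 1 of the 4 in equal-length lists. At an unadjusted p below 0.05, 3 of the 4 were past the threshold in the deposited lists, against 10.1% of all genes. These were Sox10 and Cspg4, longer in cKO, and Pdgfra, shorter in cKO. In equal-length lists 2 of the 4 were past it (Sox10 and Cspg4, longer in cKO), against 11.0%. The members were chosen with earlier results of these data known, so these counts are not independent support. The median log2 difference was 0.24 over the 4 members and 0.03 over all genes tested in the deposited lists, and 0.34 and 0.02 in equal-length lists. For counts of loci whose groups did not overlap, none of the 4 qualified in the deposited lists, where 6.71% of genes were longer in every cKO library and 5.84% in every WT library. In equal-length lists Sox10 and Cspg4 did, both longer in cKO, against 7.97% of genes longer in every cKO library and 6.69% in every WT library.

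At the level of single regions, the 7 windows held 21 regions and 89 peaks, of which 71 peaks were kept in the equal-length lists. A peak in all 6 libraries was found for 9 of the 21 regions, against 46.4% of all regions. In the deposited lists, 0 of the 21 had a peak in every library of one genotype and none of the other. Over all regions that pattern was seen in 0.347% for cKO and 0.907% for WT. Summed over the windows, unscaled peaks covered 21712, 20280 and 16969 bp in cKO replicates 1, 2 and 3, and 20979, 23206 and 14094 bp in WT replicates 1, 2 and 3. These sums overlapped, with means of 19654 ± 2433 bp in cKO and 19426 ± 4750 bp in WT (SD, n = 3 each). After scaling, the sums were 21573, 20499 and 19036 bp in cKO, and 18680, 19015 and 18320 bp in WT, so every cKO value lay above every WT value, the nearest pair by little. In equal-length lists the scaled sums were 19512, 19579 and 18350 bp in cKO, and 16826, 17173 and 17007 bp in WT, again apart. The difference between the means, cKO minus WT, was 227 bp unscaled, 1698 bp scaled and 2145 bp scaled in equal-length lists, and it was not tested. Sox8 makes up most of each sum. In equal-length lists, though, the scaled means differed most at Sox10 (2001 bp in cKO against 914 bp in WT) and Cspg4 (2444 against 1498 bp). Sox8 came next (12533 against 11847 bp), and Pdgfra (1735 against 1961 bp) and Olig2 (434 against 783 bp) went the other way. How often the sums of other gene sets lie apart was not counted.

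**Figure D4:**
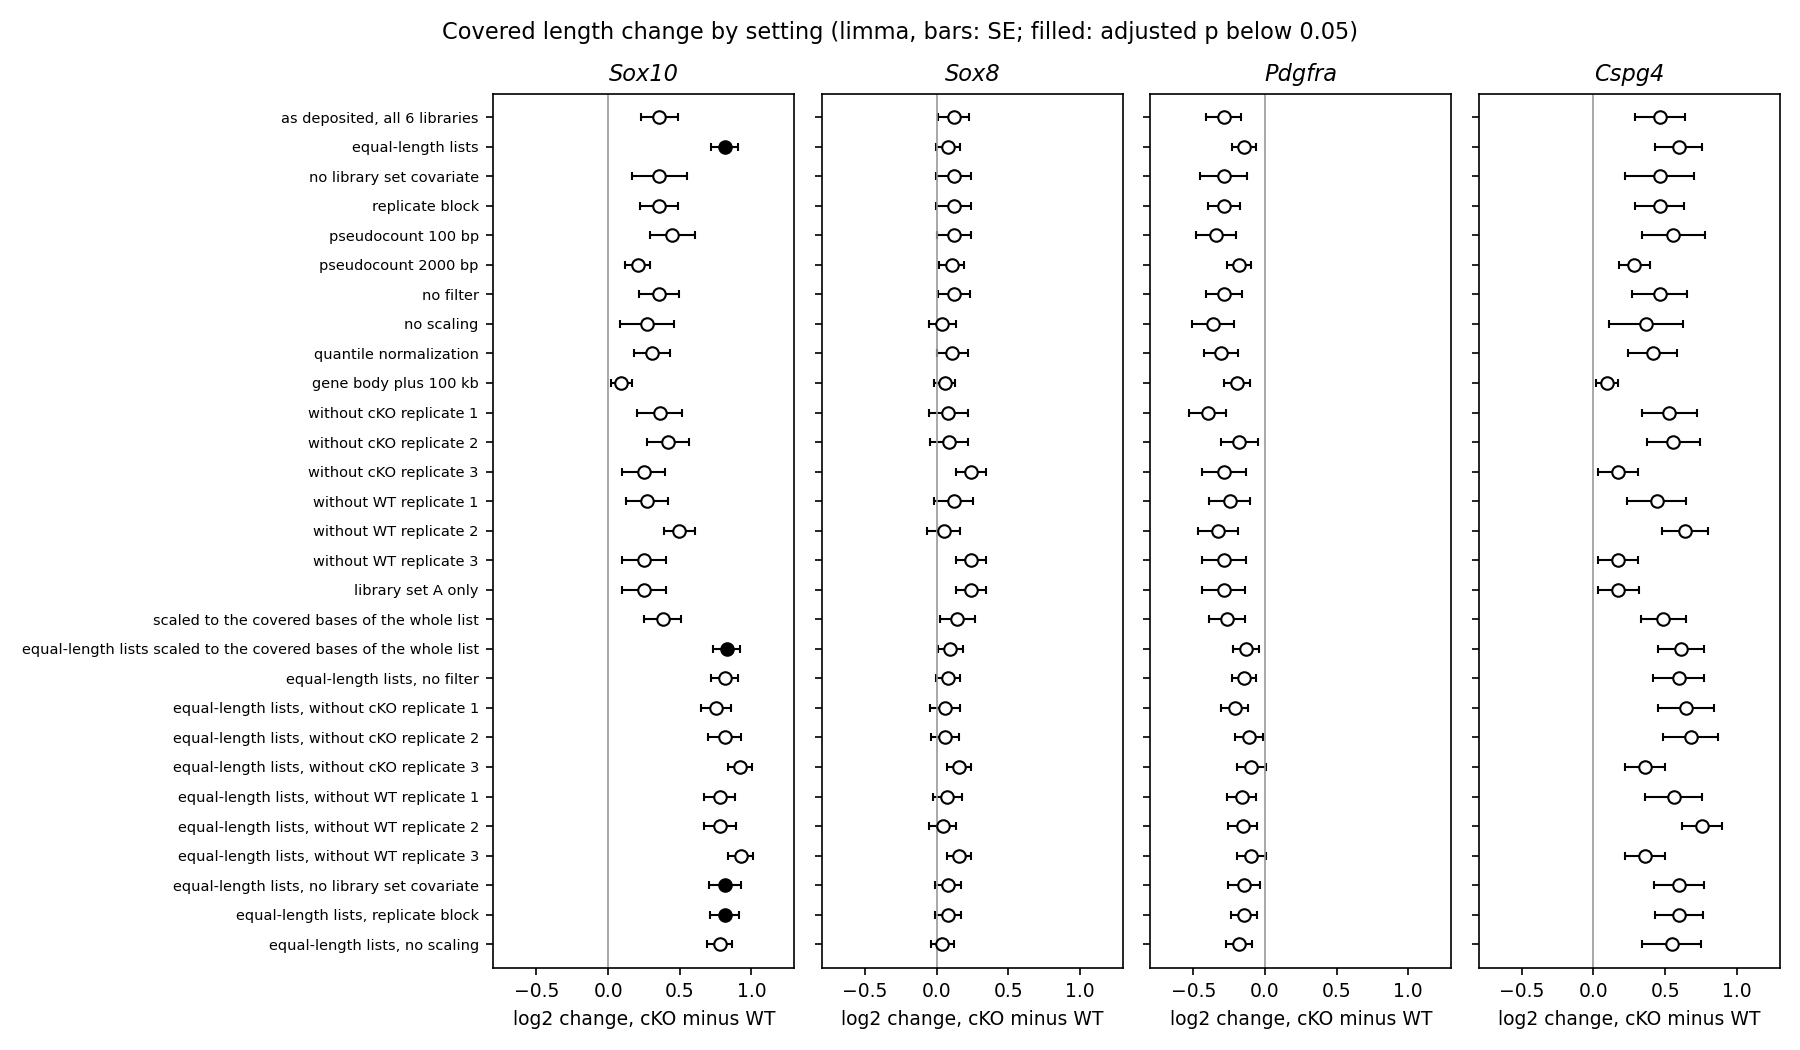
The log2 difference in covered length, cKO minus WT, of the 4 members tested, under each setting named at the left; points are limma estimates, bars their SE, and filled points have an adjusted p below 0.05. Sox10 and Cspg4 lie above 0 and Pdgfra below 0 in every setting shown, and filled points occur for Sox10 alone, in equal-length lists.

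The members that could be tested did not follow one pattern over the 6 libraries. The Pearson correlation of log2 scaled length was 0.96 between Sox10 and Cspg4, 0.15 between Sox10 and Pdgfra, and -0.57 between Sox8 and Pdgfra (n = 6 libraries, which share their depth and list length across genes). The genes whose lengths followed the mean of the 4 members most closely were Iqch, Hs3st3b1 and Elmo1, with correlations of 0.992, 0.992 and 0.990 over the same libraries. They were picked as the highest values over all genes compared, and with 6 libraries that choice alone can give values this high. Each had its lowest length in WT replicate 3, the library with the shortest list.

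Other genes of the lineage were taken from lists of known regulators and markers. Of 20 further precursor regulators and early genes, 16 were tested and limma called none in either direction, with 3 at an unadjusted p below 0.05 and a median log2 difference of -0.02. Nkx6-1 and Nkx6-2, homeodomain genes of ventral progenitors, were at 0 bp in all 6 libraries. The smallest p was that of Lhfpl3, a gene enriched in precursors, with 5882, 5870 and 4893 bp in cKO replicates 1, 2 and 3, and 4315, 4505 and 3178 bp in WT replicates 1, 2 and 3. These groups did not overlap, but 6.71% of all genes tested were likewise longer in every cKO library, and Lhfpl3 was picked by its p. The log2 difference of 0.44 ± 0.10 (SE) did not pass (limma adjusted p = 0.115). For Hes5, a Notch effector that holds progenitors undifferentiated, the difference was 0.31 ± 0.09 (limma adjusted p = 0.285), and for the growth factor receptor gene Egfr it was -0.39 ± 0.15 (limma adjusted p = 0.412).

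Among signals upstream of the lineage, 3 of 5 PDGF genes were tested and none was called, with 1 at an unadjusted p below 0.05. The log2 differences were -0.33 for the receptor gene Pdgfrb, -0.32 for the ligand gene Pdgfa and -0.19 for the ligand gene Pdgfc (limma adjusted p = 0.321, 0.521 and 0.683). Of 10 sonic hedgehog pathway genes 9 were tested and none was called, with 1 at an unadjusted p below 0.05. That was Gli3, the pathway's main repressor in dorsal forebrain. Its locus was covered for 42920, 38857 and 42593 bp in cKO replicates 1, 2 and 3, and for 61258, 70797 and 52858 bp in WT replicates 1, 2 and 3. All 3 cKO libraries lay below all 3 WT libraries, as they did for 5.84% of all genes tested. The log2 difference was -0.56 ± 0.12 (SE, limma adjusted p = 0.108). For the activators Gli1 and Gli2 it was 0.22 and -0.16 (limma adjusted p = 0.61 and 0.68). In equal-length lists 2 of the 9 hedgehog genes were at an unadjusted p below 0.05 and none was called. The log2 differences there were -0.65 for Gli3, 0.47 for Gli1 and -0.04 for Gli2 (limma adjusted p = 0.0984, 0.0984 and 0.922). For Pdgfrb it was -0.52 (limma adjusted p = 0.348).

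Myelin and mature oligodendrocyte genes, whose products appear after birth, gave 10 tested of 14, with none called and 0 at an unadjusted p below 0.05. Mag was at 0 bp in all 6 libraries. The log2 differences were 0.35 for Cldn11, a tight junction gene of myelin, -0.42 for Mobp, a myelin protein gene, and -0.21 for Tcf7l2, a factor of newly formed oligodendrocytes (limma adjusted p = 0.515, 0.568 and 0.588). In equal-length lists 8 of the 14 were tested, and for Tcf7l2 the difference was -0.10 (limma adjusted p = 0.859).

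Markers of the other cells in whole cortex were counted for comparison with Sox10 and Cspg4, and their part in the result was not tested. Of 11 ventral forebrain and interneuron markers 8 were tested and none was called, with 0 at an unadjusted p below 0.05 and Nkx2-1 at 0 bp throughout. Their summed scaled length was 161065 to 175942 bp in cKO and 138734 to 179548 bp in WT. The log2 differences were 0.19 for Sp8, 0.20 for Lhx6 and 0.15 for Dlx2, and for Lhx6 it was 0.44 in equal-length lists (limma adjusted p = 0.595). Of 7 mural cell markers, a cell type that also expresses Cspg4, 5 were tested and none was called, with 2 at an unadjusted p below 0.05 and none at 0 bp. These were Pdgfrb, given above, and Abcc9, a potassium channel subunit gene, at 0.73 ± 0.14 (SE, limma adjusted p = 0.076). For Vtn it was 0.12, and the summed length of the list was 19533 to 23183 bp in cKO and 15059 to 23129 bp in WT.

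Of 8 meningeal fibroblast markers 2 were tested and none was called, with 0 at an unadjusted p below 0.05 and Col3a1 and Foxd1 at 0 bp throughout. The log2 differences were -0.15 for the collagen gene Col1a1 and 0.07 for the proteoglycan gene Lum, and for Col1a1 it was -0.07 in equal-length lists. Their summed length was 7905 to 8876 bp in cKO and 8874 to 11900 bp in WT. All 10 cortical markers were tested and none was called, with 0 at an unadjusted p below 0.05. For the cortical neuron transcription factor genes Bcl11b and Tbr1 the log2 differences were 0.14 and 0.12, and the list summed to 248733 to 268046 bp in cKO and 234412 to 287733 bp in WT. The list went both ways, with 6 positive and 4 negative differences in the deposited lists (median 0.02). In equal-length lists 3 were positive and 7 negative (median -0.01). The cortical loci thus carried heavy acetylation in both genotypes of this tissue, which is labelled cortex. Heavy coverage was not particular to them. In the ventral list Nkx2-1 was at 0 bp, but Dlx6 averaged 32487 bp in cKO and 31008 bp in WT.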

How the data were processed

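Native chromatin was cut with micrococcal nuclease and H3K27ac fragments were pulled down, per the labels' protocols, and library fragments of 100 to 800 bp were sequenced. The submitters' processing notes name FastQC, cutadapt, Bowtie2 2.2.8, MACS2 2.1.1 and mm10, but what each did and how it was set is not given in the sources used here. Each deposited list holds, for every peak, the authors' fold enrichment ratio and their -log10 p and -log10 q values. These were used only to describe, rank or filter peaks within a list. The 6 input libraries were not analysed here.

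Bases under peaks were counted in gene bodies plus 20 kb (RefSeq, GRCm38.p6), scaled to an equal total over all gene windows, and log2 transformed after adding 500 bp. Genes with a mean of at least 1000 bp were tested with limma 3.58.1 (lmFit and eBayes, library set as covariate) in R 4.3.3, with Benjamini-Hochberg adjustment over all genes tested. Single values were compared by exact permutation over 20 label assignments. Peaks of any library that touched or shared at least 1 bp were merged into regions. Counting used Python 3.11.15 with pandas 2.3.3, numpy 2.4.6 and scipy 1.17.1, figures used matplotlib 3.10.9, and the scripts were tested on simulated data. Alternatives covered list length, -log10 q, window, pseudocount, filter, scaling, covariate, block and each library left out.

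Named were the 7 members, up to 3 genes per list with the smallest unadjusted p, the 3 genes most correlated with the members' mean, regions seen in one genotype alone, and the longest and most significant region. One gene that this rule names is not reported here. Other regions were named after their values were seen. The members and lists were chosen with earlier results of these data known.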

Additional observations from a re-analysis of the deposited data

How the results depend on the processing

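Covered length follows the width and number of called peaks, not their height, and windows can hold neighbouring genes. Depth is unknown, and weak peaks near a list's minimum are present or absent by a small margin. Of 15354 genes, 42 were called (19 longer and 23 shorter in cKO). The count was 21 with -log10 q of at least 5, 16 with no covariate, 12 and 107 with pseudocounts of 100 and 2000 bp, 6 with no filter, 1 with no scaling, 22 with quantile normalization (8 longer, 14 shorter) and 2 in library set A, and it was 2 to 73 with 1 library left out. Equal-length lists gave 45 (30 longer, 15 shorter). Chosen after seeing the data, scaling to the bases of the whole list gave 106 (57 longer, 49 shorter), and equal-length lists gave 73 with no covariate, 2 with no scaling and 1 to 10 with 1 library left out. The cause was not tested. With the replicate block 67 genes were called, including all 42, and no call on a member changed. Deviations of same-numbered libraries correlated at 0.131, 0.0631 and 0.261, and cKO replicate 1 correlated best with WT replicate 2 (0.167), so not every same-numbered pair passed 0.1 and the numbers were not taken as pairs. Replicate 3 of both genotypes also shares library set B, which the covariate holds. Regions in the windows with a peak in every cKO library and no WT library numbered 0 in the deposited lists and 1 in equal-length lists, 1 with at least 50% of a region covered and 1 with the same -log10 p minimum (chosen after seeing the data). For WT they numbered 2 without WT replicate 3, where the WT lists left were the 2 longest. The share of all regions was not counted for that setting, nor for the 50% setting. The log2 difference kept its sign for Sox10 in all 28 alternatives in which it could be tested (0.09 to 0.92, limma adjusted p 0.0222 to 0.999), for Cspg4 in 29 of 29 (0.09 to 0.76) and for Pdgfra in 29 of 29 (-0.40 to -0.09). For Sox8 it was positive in 29 of 30 and turned to -0.002102 in the gene body alone. Of these 4, Sox10 alone was called, in 4 alternatives. With -log10 q of at least 5, Sox10, Cspg4 and Pdgfra fell under the filter and were not tested. Unscaled covered length there was lower in cKO than in WT for all 3, at 773 against 933 bp for Sox10, 593 against 1051 bp for Cspg4 and 419 against 921 bp for Pdgfra, with overlapping libraries. Sox10 was also not tested in the gene body alone.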
